A study of Homo sapiens with 8 samples.

Results

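The 697-only regions are stretches of open chromatin called in every library of one leukaemia cell line and in no library of another. The assay was ATAC-seq: the transposase Tn5 cuts accessible DNA and leaves sequencing adapters there, and each library yielded 1 list of peaks. Regions were chosen by their peak calls: the 8 lists were merged wherever peaks shared at least 1 bp, and an autosomal region was kept when all 4 lists of the line 697 had a peak in it and none of the 4 lists of the line KOPN-8 did. The rule found 7550 of 128960 autosomal regions, or 5.85%. The same rule turned round gave 9362 KOPN-8-only regions, or 7.26%. These calls chose the members, so their difference between the lines is a description and was not tested.

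The 697 libraries were 2 of clone BM_B, made with a guide RNA against SETD2 and labelled as a heterozygous knockout, and 2 of cells with an empty guide vector, labelled as SETD2 wild type. The KOPN-8 libraries were 2 of clone BA, with the same kind of SETD2 guide and the same genotype label, and 2 of empty-vector cells labelled wild type. Each edited group is a single clone set against cells not described as a clone. The labels number the libraries of a group as biological replicates and do not describe separate cultures, and p-values here measure only the spread between these libraries, which may be technical.

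Both lines are established models of B cell precursor acute lymphoblastic leukaemia. Leukaemia lines of different origin are known to use different sets of enhancers, the distal switches that control genes. Promoters tend to be open in many cell types, while enhancers are more often open in one lineage or stage. Enhancers of a gene can lie in groups along many kilobases, which is why spacing and loci with several regions are described here. SETD2 is the methyltransferase that places trimethylation on lysine 36 of histone H3 along transcribed genes. Positions are hg19, counted from 1. No gene annotation or sequence in hg19 was used here, so regions are given by position, and neither the B cell label nor the state of SETD2 was checked against marker genes.

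The 697 lists held 63012 and 76495 peaks in the clone and 57154 and 70099 in the control, and the KOPN-8 lists between 63585 and 70430. Read depth is unknown. In each 697 group replicate 2 had the longer list.

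Of 41080 autosomal regions called in all 4 lists of 697, 18.4% were called in no KOPN-8 list and 63.9% in all 4. In the other direction 21.6% of 43318 regions called in all 4 KOPN-8 lists were called in no 697 list. Just outside the rule lay 4388 regions called in 3 lists of 697 and none of KOPN-8, and 2359 called in all 4 lists of 697 and 1 of KOPN-8. Clone 1 was the list without a peak in 1330 of the 4388 and clone 2 in 374, against control 1 in 2066 and control 2 in 618, so the shortest list, control 1, was the missing one in 47.1%. The KOPN-8 list that called a region of the 2359 was clone 1 in 462, clone 2 in 590, control 1 in 864 and control 2 in 443. Regions one 697 call short were narrower than the members, with a median span of 331 bp against 463.5 bp of the members. Those with 1 KOPN-8 call, at 449 bp, resembled the members in span. A span over 3 lists can be narrower because fewer lists add to it. The median width of a 697 peak was 252 bp in regions one 697 call short, against 331 bp in members.

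The 697-only regions covered 3946 kb, against 4547 kb of KOPN-8-only regions and 20612 kb of regions called in all 8 libraries. Their width ran from 208 to 2294 bp, with a median of 463.5 bp and quartiles of 344 and 630 bp. The median was 439 bp for KOPN-8-only regions and 718 bp for regions of all 8 libraries. The 697-only regions were spread more widely around their median than the KOPN-8-only ones: 11.9% were under 300 bp against 9.67%, and 4.85% (366 regions) reached 1000 bp against 1.90% (178 regions). Among regions of all 8 libraries 25.1% reached 1000 bp. A merged region of 8 lists can be wider because more lists add to it. Spanned by the 697 lists alone, regions of all 8 libraries still had a median of 641 bp against 463.5 bp of the members.

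**Figure D1:**
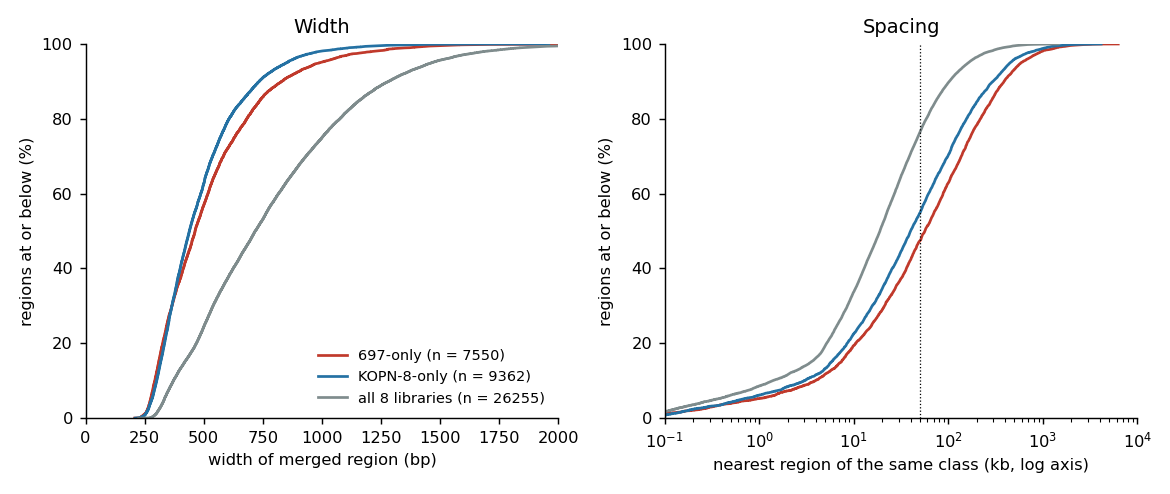
Cumulative share of regions (vertical axes, %) by width of the merged region in bp and by distance to the nearest region of the same class in kb on a log axis, for 697-only (7550), KOPN-8-only (9362) and regions of all 8 libraries (26255), with the widest regions beyond the end of the width axis. The dotted line marks 50 kb, within which 47.4% of 697-only, 54.8% of KOPN-8-only and 76.4% of the regions of all 8 libraries had another of their class.

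The 4 lists placed most members at the same bases. The bases covered by peaks of all 4 lists made up a median of 60.3% of a member's width and had a median length of 247 bp. In 5310 members (70.3%) they made up at least 50%. In 86 members the 4 lists shared no base and were joined only through each other's peaks. Most members, 6913, held 1 peak in every list, and 637 (8.44%) held several peaks of at least 1 list, up to 4. Among the 366 members of at least 1000 bp, 216 held several peaks of a list, so more of the wide members were compound than of the members at large.

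The peaks of 697-only regions were of middling rank. The deposited value of a peak is the authors' own. It was read here from its range as a fold over background because the lists name no columns. Peaks were ranked by it as percentiles within their own list, and these percentiles were compared between regions and between lists. A percentile depends on the length of its list, which differed between libraries. Peaks in members had a median percentile of 45.7 and 53.6 in the clone lists and of 42.1 and 52.1 in the control lists. Peaks in regions of all 8 libraries had medians of 71.7 and 77.4 in the clone and 68.9 and 74.4 in the control. In every 697 list the members thus ranked below the regions shared by all libraries, and in both groups replicate 2 had the higher median. KOPN-8-only regions ranked much as the 697-only regions did, with medians of 52.8 and 49.1 in the KOPN-8 clone and 52.6 and 48.4 in its control. The rank moved with the number of KOPN-8 lists that called a region: over the 4 lists of 697 the median percentile of a region was 48.8 with no KOPN-8 call, 51.7 with 1, 55.1 with 2, 58.6 with 3 and 75.1 with 4. These ranks come from the calls that chose the members and were not tested.

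A minority of members were among the strongest peaks of their lists. Of the peaks in members, 2.62% and 3.90% stood in the strongest 10% of the clone lists, and 2.15% and 3.14% in that of the control lists. The smallest percentile of a member is the lowest of its 4 values, 1 per 697 list. The member with the highest one lay at chr3:61236866-61237429, where the fold was 19 and 22.3 in the clone and 20.5 and 22.8 in the control and the smallest percentile 99.6. The nearest KOPN-8 peak was 16951 bp away. It was followed by chr9:15592863-15593327 (smallest percentile 98.6), chr5:2687777-2688228 (98.6), chr2:54557297-54558333 (98.3) and chr12:100557612-100558034 (98.0). The other 5 of the 10 strongest were on chromosomes 11, 2, 13, 9 and 7, starting at 43901943, 30845129, 103506975, 16450458 and 67846482, with smallest percentiles between 97.8 and 96.3. All 10 had 1 peak in each of the 4 lists. The one on chromosome 2 at 54557297 was 1037 bp wide and the other 9 between 423 and 908 bp, so these strong members were not the widest ones.

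The widest member lay at chr8:70745242-70747535 and spanned 2294 bp. Its widest peak measured 1674 and 2283 bp in the clone and 2182 and 2247 bp in the control, and 2067 bp were covered by peaks of all 4 lists. The 10 widest members measured at least 1706 bp. Only those at chr11:35639554-35641572 and at chr21:33244822-33246705 held 1 peak in every list. On chromosome 11 the peaks measured 1935 and 1963 bp in the clone and 1970 and 1888 bp in the control, and on chromosome 21 they measured 1622 and 1870 bp in the clone and 1504 and 1492 bp in the control. In the member at chr18:46065190-46067195 the lists cut the stretch differently, with a widest peak of 1977 and 1311 bp in the clone against 546 and 580 bp in the control, where 4 and 3 separate peaks were called. The remaining 6 were on chromosomes 9, 9, 2, 5, 16 and 12. The 10 widest members were not close to the top of the ranking, with smallest percentiles from 22.1 to 73.0. This did not hold for every member of at least 1000 bp. The one at chr2:54557297-54558333, of 1037 bp, had a smallest percentile of 98.3.

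The 697-only regions were unevenly spaced. Of the 7550, 3578 (47.4%) had another within 50 kb and 19.4% within 10 kb, while 514 (6.81%) had none within 500 kb. The median distance to the nearest member was 56550 bp, against 39994 bp among the more numerous KOPN-8-only regions and 18906 bp among regions of all 8 libraries. Members made up 5.85% of autosomal regions, but 13.6% of members (1024) were followed directly by another member as the next called region. KOPN-8-only regions were followed by their own kind in 14.5%, with a share of 7.26% of all regions, and regions of all 8 libraries in 27.1%, with a share of 20.4%. In each class the figure was thus above the class's own share, for which no test was made. Regions that shared no base were kept apart however close they lay, so these figures count close neighbours as separate regions. Whether such neighbours are parts of a single open stretch was not tested.

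Joining members at most 50 kb apart left 3972 alone and 865 groups of 2, and gave 484 loci of at least 3 members. These loci held 1848 members (24.5%). There were 287 loci of 3, 108 of 4, 75 of 5 to 7 and 14 of 8 or more. Their median span was 48.8 kb and the range 1.73 to 280 kb. Loci too include members that lie close together: at chr13:72438574-72441624, 4 members covered 2783 of 3051 bp. KOPN-8-only regions formed 754 such loci with 32.2% of their number, the largest of 12. Regions of all 8 libraries formed 3007 with 58.9% of their number, the largest of 39. The classes differ in number, for which a fixed gap makes no allowance. Members in loci were slightly wider than members alone: the median was 483 bp in loci of 5 or more, 484 bp in loci of 3 or 4, 467 bp in groups of 2 and 450 bp when alone. Their rank did not follow this order, with median smallest percentiles of 32.8, 33.5, 33.9 and 33.4.

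The locus with the most members lay at chr10:34912845-35174288, where 14 members were found among 38 regions over 261 kb. Its span held 32 and 35 peaks in the 697 clone and 30 and 29 in the 697 control, against 9 and 9 in the KOPN-8 clone and 12 and 11 in the KOPN-8 control. By the rule each member adds at least 1 peak to every 697 list and none to a KOPN-8 list. The peak counts of this locus and those below include these peaks, so they are not independent of the rule. Of its other regions 10 were called in 1 to 3 lists of 697 only, 13 in both lines and 1 in KOPN-8 only. The members there were 306 to 1048 bp wide and differed in rank, from a smallest percentile of 5.35 at 35173873 to 90.4 at 35028897, so that weak and strong members stood in the same locus.

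The next locus, at chr1:76535371-76758496, held 13 members among 26 regions. It had 21 and 21 peaks in the 697 clone and 19 and 21 in the 697 control, against 4 and 4 in the KOPN-8 clone and 5 and 6 in the KOPN-8 control. Its members at 76733381, 76734005 and 76734887 lay within 2 kb. At chr11:79019434-79182712, 12 members lay among 24 regions, with 17 and 19 peaks in the 697 clone and 16 and 17 in the 697 control, against 2 and 3 in the KOPN-8 clone and 2 and 0 in the KOPN-8 control. The KOPN-8 lists thus held few peaks in this stretch, where 12 of the 24 regions lack them by the rule.

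At chr8:140688013-140946013, 12 members lay among 36 regions, 14 of which were called in both lines. Its span was not poor in KOPN-8 peaks, with 29 and 33 peaks in the 697 clone and 24 and 30 in the 697 control, against 14 and 13 in the KOPN-8 clone and 13 and 14 in the KOPN-8 control. Its members ranked low, with smallest percentiles from 0.124 to 46.4. The locus at chr7:116654794-116765076 was denser, with 10 members among 15 regions over 110 kb, or 9.07 per 100 kb. It held 13 and 14 peaks in the 697 clone and 13 and 14 in the 697 control, against 2 and 3 in the KOPN-8 clone and 2 and 3 in the KOPN-8 control.

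The sixth locus, at chr1:232523788-232803709, had the longest span of all 484, with 10 members over 280 kb. It held 18 and 19 peaks in the 697 clone and 14 and 16 in the 697 control, against 4 and 5 in the KOPN-8 clone and 2 and 2 in the KOPN-8 control. At chr15:99557910-99715440 there were 9 members among 18 regions, including one of 1181 bp at 99557910. The eighth locus, at chr10:79245085-79325799, held 8 members and 4 further regions called only in 697, with 10 and 13 peaks in the 697 clone and 9 and 11 in the 697 control, against 0 in all 4 KOPN-8 lists. It had no KOPN-8 peak, unlike the other 9, but 7 loci tied at 8 members for the last 3 of the 10 places, which went to those with the shorter span. The last of the 10 lay at chr18:71558811-71657942 and at chr10:97123116-97227307, with 8 members each, and the KOPN-8 lists held between 1 and 4 peaks in each of them.

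**Figure D2:**
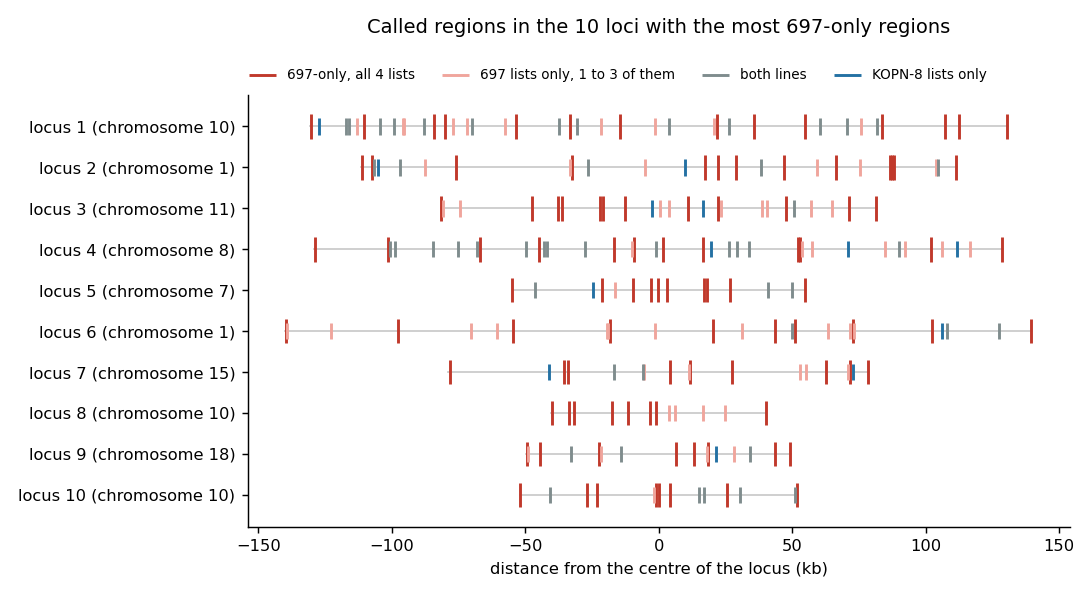
Maps of the 10 loci with the most 697-only regions, drawn to scale as distance from the centre of each locus in kb. Each tick is the centre of a called region: tall red for 697-only, short pink for regions called in 1 to 3 lists of 697 only, grey for regions called in both lines and blue for KOPN-8 only. Of the 224 regions drawn, 104 are 697-only, 58 are pink, 49 grey and 13 blue, and locus 8 has no grey or blue tick.

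Loci differed in how many KOPN-8 calls their spans held. A span that holds only members has none by the rule, and the count below was not made for loci of KOPN-8-only regions. In 160 of the 484 loci (33.1%) no region of the span was called in any KOPN-8 list. Their spans went down to 1.73 kb, and 10 of these loci had 5 members or more. Besides the eighth locus above, the largest, one of the loci tied at 8 members, was at chr9:16310352-16461963, with 8 members and 3 further 697 regions, and 10 and 9 peaks in the 697 clone and 10 and 11 in the 697 control. One of the 10 strongest members, at 16450458, lies in it. Next came chr9:14769237-14824993, chr3:21573418-21654964 and chr2:119495168-119613585, with 6 members each. On the other side, 183 loci (37.8%) held at least 1 region called in all 8 libraries, and 57 held at least 1 KOPN-8-only region. In the median locus 57.1% of the called regions were members.

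Runs of members with no other called region between them were short. Of all runs 5701 were single members and 669 were of 2. The longest held 7 members each, at chr7:116700148-116736976, inside the fifth locus, and at chr10:79245085-79284803, inside the eighth. A run of 6 lay at chr11:79053235-79088636. Runs of 5 followed at chr8:136687930-136742747 and at chr1:92178573-92235628, where the run made up its whole locus, with 5 of 5 regions. There were 4 runs of 5 in all. Members of a run were counted as separate however close they lay.

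Regions near members were more often called in 697 alone, and less often in KOPN-8 alone, than regions farther away, a description for which no test was made. Of 31015 other regions within 50 kb of a member, 33.2% were called in 1 to 3 lists of 697 only and 22.7% in KOPN-8 only. Of the 90395 regions farther away these shares were 26.4% and 32.5%. Regions called in both lines made up 44.1% near members and 41.2% elsewhere. The median member lay 11076 bp from the nearest KOPN-8 peak. In 707 members (9.36%) that peak lay within 1 kb, next to the member but not touching it, and 244 members (3.23%) had no KOPN-8 peak within 100 kb.

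The share of regions that were 697-only differed between chromosomes. It was lowest on chromosome 19, with 22 of 2534 regions (0.868%), followed by chromosome 17 with 61 (2.01%), chromosome 22 with 29 (2.10%) and chromosome 20 with 56 (2.33%). Together these 4 chromosomes had 168 members among 9355 regions (1.8%), against 7382 among 119605 (6.17%) on the other autosomes. KOPN-8-only regions ran the other way, with 1190 (12.7%) on the 4 chromosomes and 8172 (6.83%) elsewhere. The highest shares of 697-only regions were on chromosome 18 (276 regions, 7.59%), chromosome 2 (904, 7.44%) and chromosome 10 (450, 7.20%). Chromosomes 17, 19 and 22 had 0 loci of 3 members and chromosome 20 had 2, while chromosome 2 had 71.

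The 697 lists held fewer peaks on these chromosomes in all. Chromosome 19 took 2.05% and 2.07% of the autosomal peaks in the 697 clone and 1.51% and 1.61% in the 697 control, against 3.07% and 2.90% in the KOPN-8 clone and 2.85% and 2.95% in the KOPN-8 control. Chromosome 20 took 1.46% and 1.54% in the 697 clone and 1.30% and 1.37% in its control, against at least 2.44% in every KOPN-8 list. The part of these totals in the low share of members was not tested. Among regions called in all 4 lists of 697 this share was 18.4% over all autosomes. It was 3.12% on chromosome 19, 7.31% on 17, 8.53% on 22 and 9.48% on 20. It was low in each arm of 697 taken alone: regions called in both libraries of the arm and in no KOPN-8 list made up 4.34% of the regions of the 4 chromosomes for the clone, against 9.60% over all autosomes, and 2.37% for the control, against 8.02%. On chromosome 19 there were 94 such regions (3.71%) for the clone and 25 (0.987%) for the control, and on chromosome 22 there were 88 (6.38%) and 33 (2.39%). The arms lay closer on chromosome 20, with 108 (4.49%) for the clone and 71 (2.95%) for the control, and on chromosome 17, with 116 (3.82%) and 93 (3.06%). Over the 22 autosomes the share of 697-only regions ran against the number of protein-coding genes per Mb (Spearman's rho -0.53) and that of KOPN-8-only regions ran with it (rho 0.54). Both values describe 22 points from the same lists, and the gene counts are those of RefSeq for GRCh38.

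**Figure D3:**
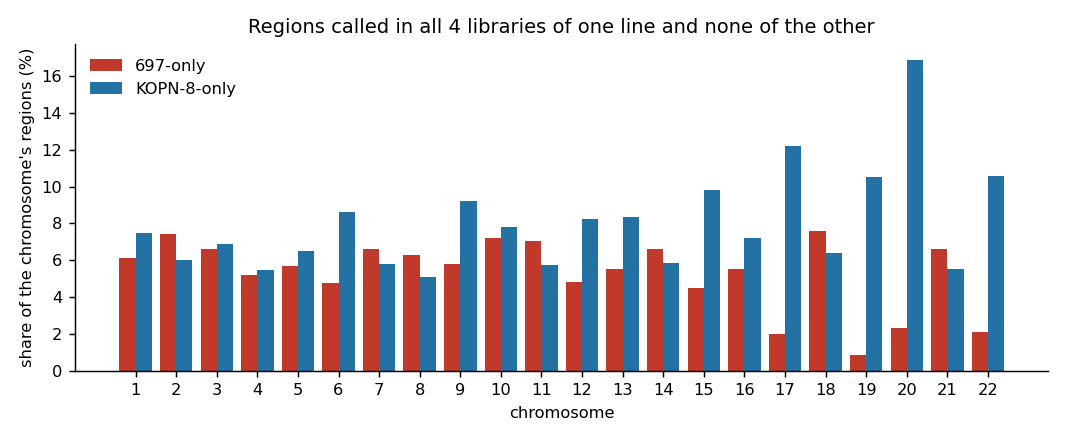
Share of each autosome's called regions (vertical axis, %) that were called in all 4 lists of 697 and none of KOPN-8 (red) or the reverse (blue). Red bars are lowest on chromosomes 19 (0.868%), 17 (2.01%), 22 (2.10%) and 20 (2.33%), and the highest blue bar is on chromosome 20 (16.9%).

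Windows of 10 Mb varied more than whole chromosomes. Over 282 windows with at least 60 regions the share of 697-only regions ran from 0 to 15.8%, with a median of 5.68%, and 16 windows were above 10%. The highest was chromosome 11 from 130 Mb (30 of 190 regions, 15.8%), then chromosome 3 from 130 to 140 Mb (57 of 413, 13.8%) and chromosome 1 from 200 to 210 Mb (93 of 701, 13.3%). Low windows lay on chromosomes with an ordinary share too: on chromosome 1 from 20 to 30 Mb only 1 of 460 regions was 697-only and 69 were KOPN-8-only. The same chromosome thus held one of the richest and one of the poorest windows.

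The rule asked for calls in both arms of 697, so it did not use the contrast of clone and control, and this contrast was tested. Peaks in members had a median width of 320 and 371 bp in the clone and 302 and 339 bp in the control. The mean was 346 ± 36.1 bp in the clone and 320 ± 26.2 bp in the control (SD, n = 2 each), a difference of 25 bp that was within the spread of the libraries (exact permutation, two-sided p = 0.667). The median percentile averaged 49.7 ± 5.60 in the clone and 47.1 ± 7.09 in the control (exact permutation, p = 0.667, n = 2 each). With 2 libraries against 2 the smallest p is 0.333, so no difference could pass the threshold of 0.05. Without clone 2 the difference was -1.50 bp in width and -1.23 in percentile. The percentile difference was also below 0 without control 1, at -0.716, and with lists of equal length, at -1.41. With equal lengths both clone values lay below both control values (exact permutation, p = 0.333, the smallest possible). Replicate 2 had the wider peaks in both groups. In regions of all 8 libraries, clone minus control was 50.5 bp in width and 2.9 in percentile (exact permutation, p = 0.667 each).

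**Figure D4:**
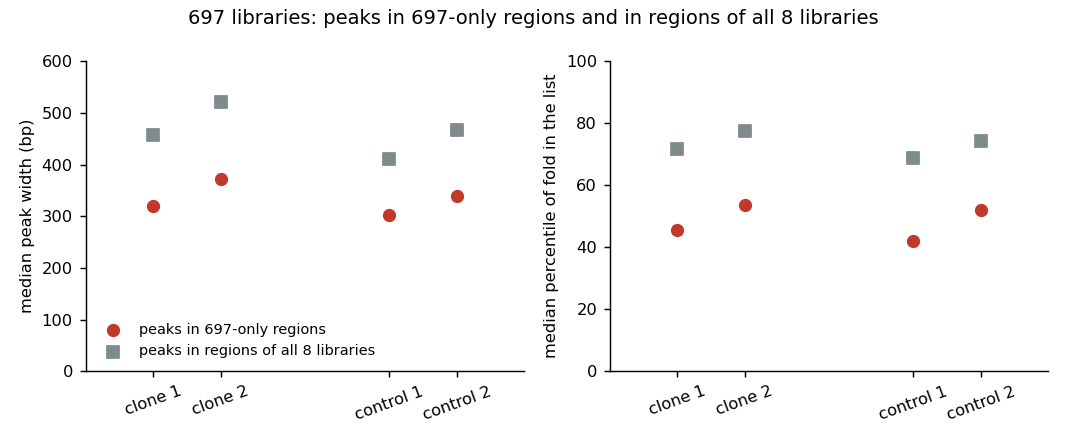
Median peak width in bp and median percentile of the fold within the list for peaks in 697-only regions (circles) and in regions of all 8 libraries (squares), 1 point per 697 library. In members the width is 320 and 371 bp in the clone and 302 and 339 bp in the control, and clone and control overlap in both panels.

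Region by region, both clone percentiles lay above both control percentiles in 1765 members (23.4%), against 23.2% of all 41080 regions called in all 4 lists of 697. They lay below in 1173 (15.5%), against 14.9%. For the widest peak of a list the clone lay above in 1922 members (25.5%), against 27.5%, and below in 880 (11.7%), against 9.43%. The percentile shares were near those of all regions, which include the members. In width, members lay above less often and below more often than all regions, which was not tested. At each replicate number the clone had the longer list, and these shares were not recomputed with lists of equal length. The counts on chromosome 19 rest on few members: 15 of its 22 lay above in the clone and 0 below, as did 56.3% and 1.61% of the other 684 regions there. Of 56 members on chromosome 20, 19 lay above and 3 below, and of 29 on chromosome 22, 10 lay above and 1 below. On chromosome 20 these were 33.9% above and 5.36% below, against 34.2% and 4.67% of the other regions called in all 4 lists of 697. On chromosome 22 they were 34.5% above and 3.45% below, against 35.7% and 3.54%.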

How the data were processed

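ATAC-seq had been carried out on 8 libraries of 2 cell lines, and each library has 1 deposited peak list in hg19. Per the submitters' processing notes, Bowtie2 aligned the reads and MACS2 made the peak calls. Their versions and settings were not given in the sources used here, and columns carry no names. The value of a peak was read from its range as a fold over background, a linear ratio made by the authors within each library. It was used to rank peaks within a list, and the percentiles were compared between regions and between clone and control.

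Lists were merged where peaks shared at least 1 bp, and calls were counted per library (Python 3.11.15, pandas 2.3.3, numpy 2.4.6). Loci join members at most 50 kb apart, with at least 3 members. Named regions are the 10 loci with the most members (ties by the shorter span), the 10 widest and 10 strongest members and the 5 longest runs, and others named in windows, loci without KOPN-8 calls and single chromosomes were chosen after their values were seen. The clone was compared with its control by exact permutation of library labels. The members, the rule and the lists were chosen with earlier results of these data known. The planned gene lists and markers were not used, since no hg19 annotation was used here. The code was checked on simulated lists. Alternatives were the strongest 50% of each list, equal list lengths, calls covering 50% of a region, a distance of 1 kb to the other line, peaks of at least 300 bp, other gaps and each library left out.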

Additional observations from a re-analysis of the deposited data

Results flagged for a closer look

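Data outside the autosomal rule held the same pattern of calls: 238 of 3910 regions on chromosome X (6.09%) were called in all 4 lists of 697 and in none of KOPN-8, against 5.85% of the autosomal regions. Chromosome Y had 0 such regions.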

How the results depend on the processing

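Depth is unknown and each group has 2 libraries, which limits every count here. Without any 1 library the rule loosens: the number of 697-only regions ran from 7983 to 9643, their share from 6.34% to 7.65%, the KOPN-8-only number from 9509 to 10826, the median width from 420 to 464 bp, the share with a neighbour within 50 kb from 48.3% to 52.0%, the loci from 523 to 706 and the share followed by another member from 14.1% to 15.9%. With the strongest 50% of each list there were 4712 697-only regions (8.26%) and 5110 KOPN-8-only regions, a median width of 563 bp, 32.9% with a neighbour, 155 loci and 16.2% followed by another. Peaks of at least 300 bp gave 4334 (6.10%), 5373, 616 bp, 36.3% and 186 loci. With lists of equal length the share was 7.05%, with calls covering 50% of a region 6.02% and with no peak of the other line within 1 kb 5.31%, those with a neighbour were 45.2%, 49.0% and 44.9%, and with equal lengths 14.7% were followed by another. In the same order the numbers of 697-only regions were 7193, 7767 and 6843, with 420, 519 and 399 loci. A gap of 20 kb gave 29.0% and 236 loci, a gap of 100 kb 62.9%, and 89 loci held at least 5 members. The share on chromosomes 17, 19, 20 and 22 stayed between 1.11% and 2.76%, below the other autosomes in every alternative, a check added after seeing the data.

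The difference of clone and control in width ran from -1.50 to 42.0 bp without 1 library and that in percentile from -1.23 to 8.04. The width changed sign without clone 2 (-1.50), the percentile without clone 2 (-1.23), without control 1 (-0.716) and with lists of equal length (-1.41). The cause was not tested. A replicate block left them at 25 bp and 2.56, with an exact p of 0.5 each, the smallest that 2 pairs allow. The numbers are not stated to pair the libraries.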
